A study of Mus musculus with 4 samples.

Results

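The miR-130/miR-301 and miR-148/miR-152 families were examined in 4 mouse cell lines that had been profiled on miRNA arrays. Array entries named for miR-130a, miR-130b, miR-301a, miR-301b, miR-148a, miR-148b or miR-152, with either arm, were taken whatever their signal, which gave 14 of the 1023 mouse miRNAs on the array. Of these, 8 belonged to miR-130 and miR-301 and 6 to miR-148 and miR-152. NSCL61 are glioma-initiating cells from neural stem cells, that is, cells able to start a glioma, and NSC are neural stem cells. OPCL61 are glioma-initiating cells from oligodendrocyte precursor cells, and OPC are oligodendrocyte precursor cells, which normally give rise to myelinating oligodendrocytes. All 4 were grown as cell lines, and the labels name neither the alleles nor the agents by which the glioma-initiating lines were made. Each line was measured on 1 array from 100 ng of total RNA, so errors below are SDs or standard errors over replicate spots of 1 array, and differences between lines have no replicate check. The total RNA came from whole cultures, in which fewer cells with a miRNA and less of it per cell cannot be told apart.

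MicroRNAs are short RNAs that guide Argonaute proteins to messenger RNAs, mostly by pairing of the seed near their 5′ end, and so lower the target's stability and translation. The miR-130/miR-301 family is known for repressing Pparg, a nuclear receptor of fat cell differentiation. The miR-148/miR-152 family is known for repressing Dnmt1, the maintenance DNA methyltransferase. Each precursor hairpin gives a 5p and a 3p strand, of which one is often kept far more than the other.

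The mature 3p sequences show how the families relate. RefSeq, on the build GRCm38.p6, held the mature sequence of 13 of the 14 members. Below they are written 5′ to 3′ with the seed (bases 2 to 8) in capitals.
miR-130a-3p: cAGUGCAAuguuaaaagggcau
miR-130b-3p: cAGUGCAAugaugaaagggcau
miR-301a-3p: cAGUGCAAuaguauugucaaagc
miR-148a-3p: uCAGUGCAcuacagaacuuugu
miR-148b-3p: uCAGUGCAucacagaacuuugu
miR-152-3p: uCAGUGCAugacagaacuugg
The miR-148/miR-152 seed is the miR-130/miR-301 seed moved by a single base, so that the families share most of the seed letters without sharing a seed. The seed AGUGCAA was found in 7 mature miRNAs of the RefSeq table, of which 4 were on the array, and the seed CAGUGCA in miR-148a-3p, miR-148b-3p and miR-152-3p alone. miR-130a-3p and miR-130b-3p were identical at 20 of 22 bases and differed by U11A and A13G, counted from 1 at the 5′ end, with the base of miR-130a-3p first. miR-301a-3p kept the seed and differed from miR-130a-3p at 10 of the 22 bases compared, all of them 3′ of it. miR-148a-3p and miR-148b-3p differed by C9U and U10C, and miR-148b-3p and miR-152-3p by C10G and U20G, each with the first-named miRNA's base first.

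The array probes are complementary to the 3′ part of each miRNA, and their positions in the array's mm9 annotation place the members in the genome. The brightest probe of miR-130b-3p lay at chr16:17124208-17124225 on the minus strand, and that of miR-301b-3p at chr16:17124550-17124569 on the same strand, with 342 bases between the probe starts. The brightest probe of miR-130a-3p was at chr2:84581316-84581334 (minus strand), that of miR-301a-3p at chr11:86926558-86926578 (plus), that of miR-148a-3p at chr6:51219873-51219892 (minus), that of miR-148b-3p at chr15:103115619-103115637 (plus) and that of miR-152-3p at chr11:96711757-96711773 (plus). In RefSeq the mature strands of miR-301a lie within the span of Ska2, a gene of a spindle and kinetochore protein. Those of miR-148b lie within Copz1 and those of miR-152 within Copz2, which encode subunits of the COPI vesicle coat. The mature strands of miR-130b and the 5p strand of miR-301b lie within 2610318N02Rik, and the mature strands of miR-148a within Gm38821. No gene in the RefSeq table spanned miR-130a. The strand of the genes was not compared.

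The summed unscaled signal of all miRNAs well above background was 251354 units in NSCL61, 78035 in NSC, 95121 in OPCL61 and 32134 in OPC, with no saturated mouse spot. The arrays were therefore scaled by log2 shifts of 1.44 for NSCL61, −0.52 for NSC, 0.38 for OPCL61 and −1.30 for OPC, which are subtracted, so a ratio between lines depends on them and the unscaled signals are given first. The arms of miR-9, a miRNA of neural progenitors, summed to 63.9 scaled units in NSCL61 against 2367 in NSC, and to 28.1 in OPCL61, where neither was well above background, against 1271 in OPC. Of miR-219-5p and miR-338-3p, known from oligodendrocytes, both were well above background in NSC, miR-338-3p alone in NSCL61 and OPC, and neither in OPCL61. miR-124-3p, a miRNA of neurons, was well above background in NSC alone, at 46.2 scaled units. In OPC it stood at 42.0 units, next to the lowest level among detected probes of that array, so it hardly separates NSC from OPC. None of the blood, liver or muscle markers was well above background in any line. Of 2 endothelial markers, 1 was so in NSCL61 and none in the other lines. Of 3 fibroblast and smooth muscle markers, 1 was well above background in NSCL61, OPCL61 and OPC and none in NSC: it was miR-199a-3p, at 152.4 scaled units in NSCL61, 26.5 in OPCL61 and 47.5 in OPC. Summed levels of the 3 were 165 units in NSCL61, 72.9 in NSC, 54.6 in OPCL61 and 128 in OPC, made up mostly of each array's lowest level except in NSCL61, so they do not rank the lines. The part of these differences in the results below was not tested.

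Of the 4 miR-130/miR-301 3p strands, 3 were well above background in NSCL61, 3 in NSC, 4 in OPCL61 and 3 in OPC. Of the 3 miR-148/miR-152 3p strands, 2 were so in NSCL61, 1 in NSC, and none in OPCL61 or OPC. Some strands fell short with part of their spots well above background. In OPCL61 these were 6 of 20 spots of miR-152-3p and 4 of 19 of miR-148b-3p, and in OPC 7 of 20 of miR-148b-3p. In NSC miR-148a-3p fell short with 9 of 20 spots, where miR-148b-3p passed with 13 of 20. Over all mouse miRNAs the share well above background was 22.3% in NSCL61, 16.6% in NSC, 20.1% in OPCL61 and 13.6% in OPC. None of the 5p strands was so on any array. With miR-148a-3p, 8 of the 14 members stayed below this limit on all 4 arrays, and the mean signals of their 20 probes lay between −4.30 and 17.5 units. The lowest single spot well above background was at 16.29 to 18.20 units, depending on the array.

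**Figure D1:**
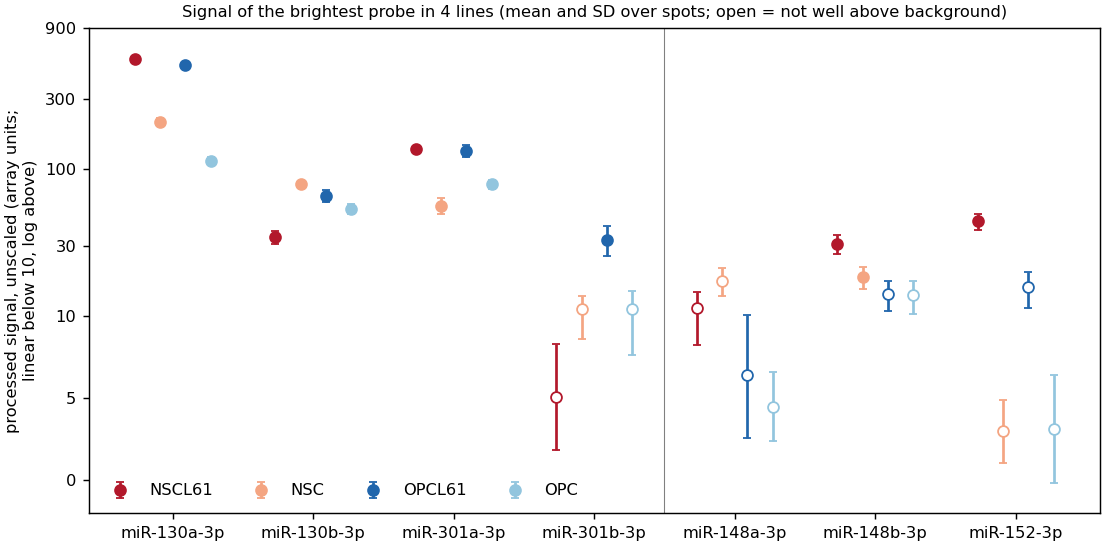
Unscaled processed signal (array units, linear below 10 and log above) of the brightest probe of the 7 3p strands in NSCL61, NSC, OPCL61 and OPC, as mean and SD over the spots of 1 array, with open points where the miRNA was not well above background. The miR-130a-3p points of the glioma-initiating lines (556 and 507) lie above those of NSC and OPC (208 and 113), miR-301b-3p is filled in OPCL61 alone (33.2), and miR-152-3p in NSCL61 alone (44.2).

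mmu-miR-130a-3p gave 556 ± 13.0 units in NSCL61 against 208 ± 12.9 in NSC, and 507 ± 19.5 units in OPCL61 against 113 ± 6.39 in OPC (mean ± SD over spots). The glioma-initiating lines were thus the brighter ones in both lineages before scaling. After the main scaling the order held in only one lineage: the levels were 205 units in NSCL61 and 296 in NSC, and 390 in OPCL61 and 279 in OPC. The scaled log2 ratio was −0.53 (standard error over spots 0.02) for NSCL61 over NSC and 0.48 (0.02) for OPCL61 over OPC, against 1.42 and 2.16 without scaling. Both ratios were also above 0 with median scaling (0.14 and 0.41) and with the 75th percentile taken over all probes (0.51 and 0.94), so the direction in NSCL61 depended on the scaling. Neither ratio reached 2-fold after the main scaling.

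mmu-miR-130b-3p, its near-identical partner, gave 34.5 ± 3.50 units in NSCL61 against 79.4 ± 3.35 in NSC, and 65.6 ± 6.26 units in OPCL61 against 53.6 ± 4.18 in OPC. NSCL61 was the dimmest of the 4 arrays although its total signal was the highest. After scaling, miR-130b-3p was 8.94-fold lower in NSCL61 than in NSC (log2 ratio −3.16, standard error 0.04), which was rank 141 of the 153 miRNAs measured in both, counted from the highest ratio. It was 2.62-fold lower in OPCL61 than in OPC (log2 ratio −1.39, standard error 0.04, rank 104 of 131). Without scaling the first ratio stayed below 0, at −1.21, and the second turned to 0.29.

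mmu-miR-301a-3p gave 136 ± 6.38 units in NSCL61 against 56.3 ± 6.92 in NSC, and 132 ± 11.8 units in OPCL61 against 78.5 ± 5.19 in OPC. The glioma-initiating lines were again the brighter ones before scaling, and were close to each other. Its scaled log2 ratios were −0.67 (0.04) for NSCL61 over NSC and −0.92 (0.04) for OPCL61 over OPC, both under 2-fold, and 1.28 and 0.75 without scaling. For NSCL61 over NSC it was also above 0 with the percentile over all probes (0.37) and with quantile normalization (0.09).

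miR-301b-3p was well above background in OPCL61 alone, where it gave 33.2 ± 7.62 units, against 11.2 ± 3.60 in OPC. In NSCL61 it gave 5.09 ± 3.22 units, and in NSC 11.2 ± 2.57. RefSeq held no mature sequence for it under this name, so the evidence is shown by its 4 probes, written 5′ to 3′, followed by the miR-301a-3p probe of 20 bases. Capitals mark the base at which the 20-base probes differ.
miR-301b-3p, 17 bases: gctttgacaataccatt
miR-301b-3p, 18 bases: gctttgacaataccattg
miR-301b-3p, 19 bases: gctttgacaataccattgc
miR-301b-3p, 20 bases: gctttgacaatacCattgca
miR-301a-3p, 20 bases: gctttgacaatacTattgca
All 4 probes were well above background in OPCL61, on 10 of 10 spots each, and their medians lay between 32.3 and 33.8 units whatever the probe length. On the other arrays no spot of these probes was well above background, and the signal was higher for longer probes, with medians between −0.91 and 5.09 units in NSCL61, −1.92 and 10.2 in NSC, and 1.09 and 11.7 in OPC. The miR-301a-3p probe of 20 bases, which differs from that of miR-301b-3p at 1 base, gave mean signals of 38.6 units in NSCL61, 18.8 in NSC, 69.1 in OPCL61 and 33.1 in OPC. Signal of miR-301a-3p on the miR-301b-3p probes was not tested. In scaled levels miR-301b-3p was at least 3.75-fold higher in OPCL61 than in NSCL61. No bound could be given against OPC, since the lowest scaled level among detected probes of OPC, 42.0 units, lay above the level in OPCL61, 24.9 units. Without scaling the bound was at least 1.90-fold.

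**Figure D2:**
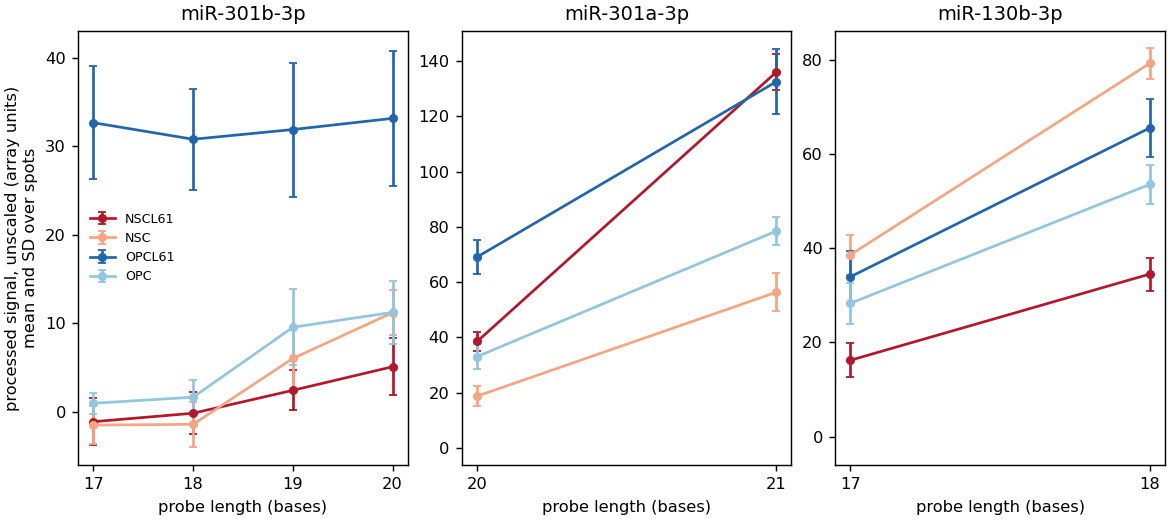
Unscaled processed signal (array units, mean and SD over spots) against probe length in bases for miR-301b-3p, miR-301a-3p and miR-130b-3p, with a line for each of NSCL61, NSC, OPCL61 and OPC. The 4 miR-301b-3p probes give a flat line in OPCL61 (means between 30.8 and 33.2) and rising lines on the other arrays, up to 11.2, whereas the longer probe is the brighter one for miR-301a-3p and miR-130b-3p on every array.

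Among the miR-148/miR-152 strands, mmu-miR-148b-3p gave 31.1 ± 4.74 units in NSCL61 against 18.6 ± 3.16 in NSC, and 14.2 ± 3.29 units in OPCL61 against 13.9 ± 3.53 in OPC. It was well above background in NSCL61 and NSC, and in the oligodendrocyte precursor lineage its signals lay within 1 SD of each other and below the limit. After scaling it was 2.40-fold lower in NSCL61 than in NSC (log2 ratio −1.26, standard error 0.06, rank 87 of 153), and without scaling the ratio turned to 0.69. The scaled level in NSCL61, 11.3 units, lay under 24.3 units, the lowest that the scaled NSC array could show. The direction after scaling was therefore fixed by that lowest level, and the NSC level of 27.2 units lay close to it. The evidence for miR-148b-3p rested on 1 of its 2 probes, since the probe of 18 bases had medians of 0.40 to 2.26 units on the 4 arrays against 13.6 to 30.2 for the probe of 19 bases.

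miR-152-3p gave 44.2 ± 5.47 units in NSCL61, where all 20 spots were well above background, against 2.97 ± 1.92 in NSC, where none was. It gave 15.8 ± 4.35 units in OPCL61, with 6 of 20 spots well above background, against 3.11 ± 3.29 in OPC, with none. Both glioma-initiating lines thus had more unscaled signal than their counterparts, by more than the spread over spots. Without scaling miR-152-3p was at least 2.45-fold higher in NSCL61 than in NSC. In scaled levels no bound could be given, since 16.2 units in NSCL61 lay under the lowest level among detected probes of NSC, 25.6 units. miR-148a-3p was highest in NSC, at 17.5 ± 3.72 units, against 11.4 ± 3.19 in NSCL61, and gave 6.40 ± 3.80 units in OPCL61 and 4.49 ± 2.09 in OPC, and was well above background in none.

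After the main scaling, the members called between glioma-initiating and precursor cells were all lower, at shares near those of all miRNAs. For a call, a miRNA measured in both lines had to differ 2-fold or more, and beyond 2 spot standard errors. Where 1 line was not well above background, the bound had to reach 2-fold. For NSCL61 over NSC, 2 of the 5 members well above background in either line were called lower (miR-130b-3p and miR-148b-3p) and none higher, where 38.8% of 245 miRNAs were called lower and 11.8% higher. The direction of the miR-148b-3p call was fixed by the lowest level of the scaled NSC array. For OPCL61 over OPC, 1 of 4 was called lower (miR-130b-3p) and none higher, where 20.6% of 214 miRNAs were called lower and 15% higher. The members' median log2 ratio was −0.97 over 4 members in the first comparison, where that of all miRNAs was −1.02 over 153, and −0.92 over 3 members in the second, where that of all was −0.33 over 131. Without scaling, miR-130a-3p, miR-301a-3p and miR-152-3p were called higher and miR-130b-3p lower in NSCL61, where 49% of miRNAs were called higher and 6.94% lower. In OPCL61 without scaling miR-130a-3p alone was called, as higher, where 55.6% of miRNAs were called higher and 1.87% lower, and the median of all miRNAs was 0.93 for NSCL61 over NSC and 1.35 for OPCL61 over OPC.

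**Figure D3:**
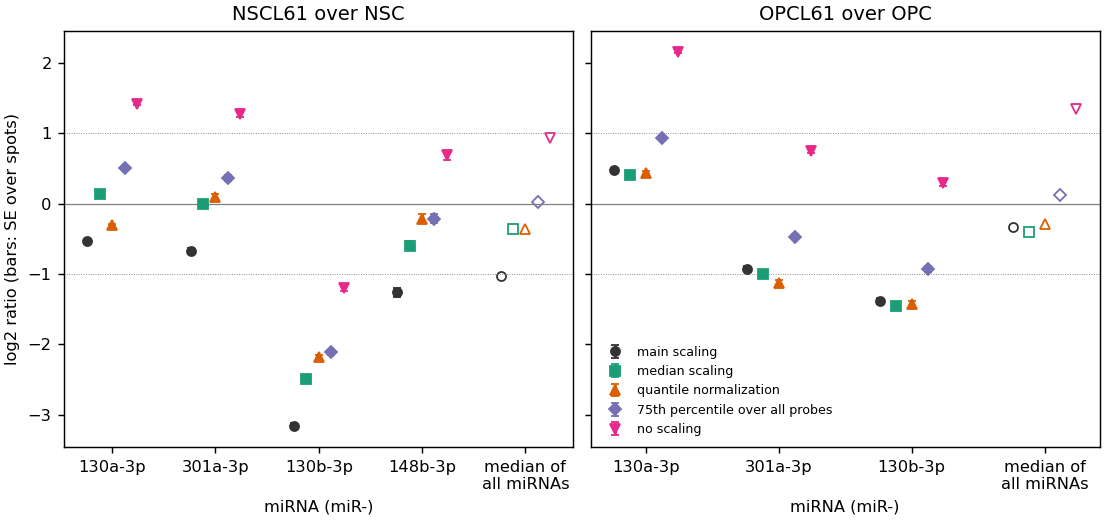
Log2 ratio of the members measured in both lines, for NSCL61 over NSC and OPCL61 over OPC, under 5 ways of scaling the arrays (bars: standard error over spots, mostly within the symbols; open symbols: median of all miRNAs measured in both lines; dotted lines: 2-fold). The values move together from one scaling to the next, except with quantile normalization, and miR-130b-3p lies under miR-130a-3p and miR-301a-3p in both panels under all 5.

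Differences between members on the same arrays do not depend on a scaling by 1 factor per array, and they separated miR-130b-3p from miR-130a-3p. The ratio of miR-130a-3p exceeded that of miR-130b-3p by 2.63 log2 units (6.18-fold, standard error over spots 0.04) for NSCL61 over NSC and by 1.87 (3.66-fold, 0.05) for OPCL61 over OPC. For NSCL61 over NSC it was smaller with quantile normalization (3.67-fold) and with normexp background correction (3.17-fold), which act on bright and dim probes unequally. For OPCL61 over OPC it was 3.64-fold and 2.89-fold under these settings. All of these differences were larger than the spot error, and there was no replicate array to set them against. In OPCL61 over OPC the second probe of each miRNA gave closely similar ratios, at 0.46 for miR-130a-3p and −1.42 for miR-130b-3p. In NSCL61 over NSC the second probes gave −0.55 for miR-130a-3p and −3.04 for miR-130b-3p. That miR-130b-3p probe had only 9 of 20 spots well above background in NSCL61. Its mean there, 16.2 units, lay under the array's lowest spot well above background, 17.3 units, to which lower values were set. The −3.04 was therefore limited by that lowest value and cannot check the size given by the brightest probe. For NSCL61 over NSC miR-301a-3p lay nearer to miR-130a-3p, with a difference of 0.14 between their log2 ratios, and its ratio exceeded that of miR-130b-3p 5.60-fold. For OPCL61 over OPC miR-301a-3p lay nearer to miR-130b-3p, with a 1.38-fold difference, and the ratio of miR-130a-3p exceeded its own 2.65-fold. These sizes rest on its 21-base probe (−0.67 and −0.92), while its 20-base probe gave −0.96 and −0.61. For NSCL61 over NSC, the log2 ratios of miR-301a-3p and miR-130a-3p were −0.92 and −0.49 with normexp, and 0.09 and −0.30 with quantile normalization.

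The families could be set against each other only for NSCL61 over NSC, and there they overlapped. The median log2 ratio was −0.67 over 3 miR-130/miR-301 members and −1.26 for miR-148b-3p, the single miR-148/miR-152 member measured in both lines, a difference of 0.59. Its size rested on the NSC level of miR-148b-3p, which lay close to the lowest level of that array. The ratio of miR-148b-3p lay between those of miR-301a-3p and miR-130b-3p, 0.59 log2 units from the first and 3.72-fold above the second. The members of the miR-130/miR-301 family thus differed more among themselves than the family medians did. The difference was −0.09 with quantile normalization, so its direction depended on the scaling. In the other 3 comparisons no miR-148/miR-152 member was well above background in both lines.

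Between the precursor lines, miR-301a-3p was the only one of 4 members called, where 14% of 200 miRNAs were called higher and 11.5% lower. The share of members called was thus near that of all miRNAs. miR-301a-3p was 2.41-fold higher in OPC than in NSC (log2 ratio 1.27, standard error 0.04), which was rank 6 of the 109 miRNAs measured in both. The log2 ratios of OPC over NSC were −0.09 for miR-130a-3p and 0.22 for miR-130b-3p, where the median of all miRNAs was −0.05. The ratio of miR-301a-3p thus exceeded that of miR-130a-3p 2.56-fold and that of miR-130b-3p 2.08-fold. Without scaling miR-301a-3p was 1.40-fold higher in OPC and not called, where 6% of miRNAs were called higher and 32% lower. Its call was also lost with the percentile over all probes (log2 ratio 0.87) and with normexp (0.80).

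Between the glioma-initiating lines, 3 of 6 members were called higher in OPCL61 than in NSCL61 and none lower, where 34.8% of 256 miRNAs were called higher and 12.1% lower. They were miR-130b-3p (3.97-fold, log2 ratio 1.99, rank 28 of 178), miR-301a-3p (2.03-fold, rank 61) and miR-301b-3p (at least 3.75-fold). The log2 ratio of miR-130a-3p was 0.93, and that of all miRNAs had a median of 0.38. The 20-base probe of miR-301a-3p gave a log2 ratio of 1.90 here against 1.02 for its brighter probe of 21 bases, so the size of this difference depended on the probe. On the miR-148/miR-152 side miR-152-3p was at least 1.12-fold lower in OPCL61, a bound too small to call, and at least 2.35-fold lower without scaling. The call of miR-301a-3p was lost with median scaling (1.22-fold), and its log2 ratio was 0.89 with normexp, 0.84 where all spots had to be well above background and 0.81 with the software's total signal. The log2 ratio of miR-130b-3p was 1.27 with normexp and 1.01 with quantile normalization. With the percentile over all probes it was 0.998 and the bound of miR-301b-3p was 1.89-fold, and neither was called. Without scaling none of the 3 was called, the log2 ratio of miR-301a-3p was −0.04, and 15.6% of miRNAs were called higher and 39.5% lower. The 4 comparisons share arrays, so they are no independent repeats of each other.

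Related by seed were also 3 other miRNAs, all well above background on at least 1 array. miR-721 has the same seed as the miR-130/miR-301 family, and miR-19a-3p and miR-19b-3p, of the miR-17-92 clusters, have a seed that is moved by a single base the other way.
miR-721: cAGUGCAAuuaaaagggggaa
miR-19a-3p: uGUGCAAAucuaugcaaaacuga
miR-19b-3p: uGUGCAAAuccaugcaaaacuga
miR-19a-3p had scaled log2 ratios of 0.02 for NSCL61 over NSC and −0.06 for OPCL61 over OPC, and miR-19b-3p had 0.65 and 0.13, so neither was called. miR-721 was 3.62-fold lower in NSCL61 than in NSC (log2 ratio −1.86) and was called, and it was at least 2.08-fold lower in OPC than in NSC. Without scaling miR-19a-3p and miR-19b-3p were 3.92-fold and 6.09-fold higher in NSCL61, and the log2 ratio of miR-721 was 0.10.

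By their pattern over the 4 arrays, the miRNAs nearest to each member had other seeds. Likeness was the Euclidean distance between scaled log2 levels, each centred on its own mean over the 4 arrays, among the 105 miRNAs well above background on all of them. Of these only miR-130a-3p, miR-130b-3p and miR-301a-3p were members. Nearly all candidates thus lay outside the families, and such neighbours were likely in advance. Nearest to miR-130b-3p were miR-181d-5p, at a distance of 0.24 log2 units, miR-181b-5p at 0.38 and miR-181a-5p at 0.42, a family with one seed. These were 9.86-fold, 10.1-fold and 10.2-fold lower in NSCL61 than in NSC, and 2.79-fold, 3.54-fold and 3.82-fold lower in OPCL61 than in OPC. Nearest to miR-130a-3p were miR-15a-5p (0.33), miR-3473 (0.38) and miR-30a-5p (0.45), and nearest to miR-301a-3p were miR-25-3p (0.64), miR-3085-3p (0.67) and miR-30c-5p (0.67). The distances between members were 2.38 for miR-130a-3p and miR-130b-3p, 1.24 for miR-130a-3p and miR-301a-3p, and 1.79 for miR-130b-3p and miR-301a-3p. The points of a pattern share an array each, and 4 of them allow many near patterns.

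**Figure D4:**
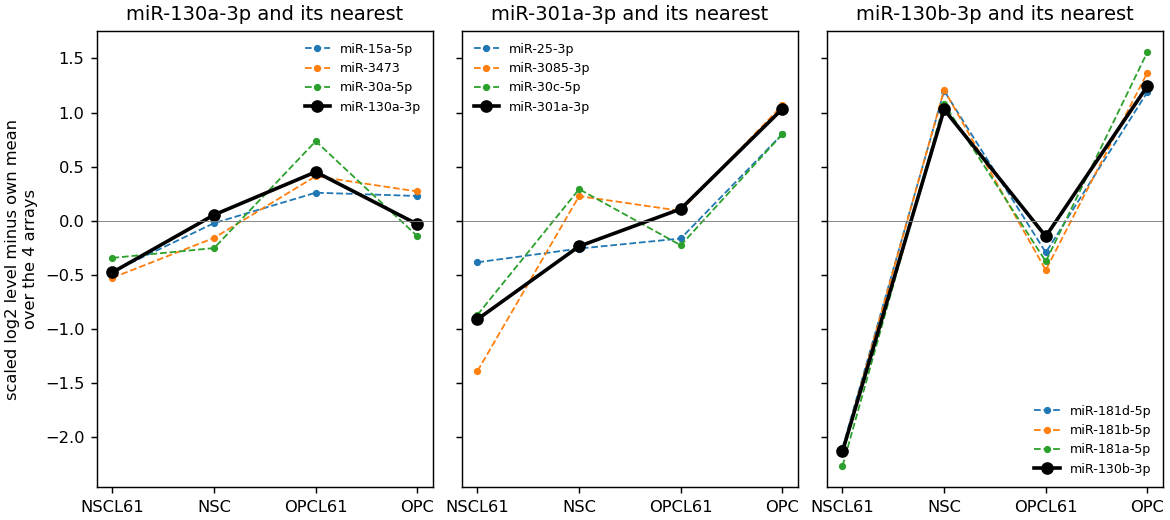
Scaled log2 level minus the miRNA's own mean over the 4 arrays, in NSCL61, NSC, OPCL61 and OPC, for miR-130a-3p, miR-301a-3p and miR-130b-3p (black) and the 3 miRNAs nearest to each (dashed). miR-130b-3p is lowest in NSCL61 (−2.13) and highest in OPC (1.25), next to 3 miR-181 strands, whereas miR-130a-3p spans −0.48 to 0.45.

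Both lineages entered one limma model with a term for glioma-initiating cells and a second term for lineage. It used miRNAs measured above background on 2 or more arrays, of which 0.485% passed an adjusted p of 0.05 (1 miRNA, lower) and 11.2% did without scaling, with no member among either. The log2 difference of miR-130b-3p was −2.27 (SE 0.85, limma adjusted p = 0.20), with lower values in 2 of 2 lineages. miR-301a-3p had −0.80 (SE 0.61, adjusted p = 0.46) and was lower in 2 of 2 lineages, while miR-130a-3p had −0.02 (SE 0.51, adjusted p = 0.97) with opposite signs in the lineages. miR-148b-3p had −1.40 (SE 0.39, adjusted p = 0.13), but its OPCL61 and OPC values were not well above background and lay close to the lowest levels that the scaled arrays could show, at log2 levels of 3.82 in OPCL61 and 5.36 in OPC. This fit had 1 residual degree of freedom, and it measures the spread between the lineages, not between cultures.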

How the data were processed

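Per the labels' protocols, 100 ng of total RNA per line was labelled with Cy3 and hybridised to 1-colour mouse miRNA arrays. The submitters' processing notes name Agilent Feature Extraction 10.7.3.1. The deposited intensity values are the software's processed signal, background-subtracted and not normalized between arrays, per the file headers, which also give 1 slide and 1 scan for all 4 arrays and a design annotated on mm9. A deposited table of values repeats these intensities (largest difference 0). Nothing in the labels says that a line was cultured more than once.

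Each array held 45364 spots, of which 40920 were for 2645 probes of 1023 mouse miRNAs. Spots marked as outliers by the software (1842 to 2365 mouse spots per array) were left out. Scaling used the 75th percentile of log2 signal on an array, taken over 182 probes that were well above background on every array. Values under the array's lowest spot well above background were set to that spot's signal, log2 was taken and spots were averaged. A miRNA counted as well above background where 50% or more of the spots of any of its probes carried that flag of the software. Its level is that of the probe with the brightest mean. A bound sets the higher level against the lowest level among detected probes of the other array, or the probe's own where higher, and is not given under 1-fold. The number of arrays limits the precision. No test between single lines could be made, so ratios carry only the standard error over spots. limma 3.58.1 in R 4.3.3 (lineage term, trended prior variance, Benjamini-Hochberg adjustment) fitted both lineages together, and was tested on simulated data. Python 3.11.15, numpy 2.4.6 and pandas 2.3.3 did the rest.

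Mature sequences, their spans and strands came from RefSeq (GRCm38.p6), matched by miRNA name. The members, relatives, marker lists and comparisons were chosen with earlier results of these data known. Named miRNAs were all members, the seed relatives and the 3 nearest patterns of each member measured on all 4 arrays. Alternatives covered scaling, background correction, outlier spots, probe choice, the detection rule, the fold threshold and the settings of the fit.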

Additional observations from a re-analysis of the deposited data

Results flagged for a closer look

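miR-130a-3p lay on opposite sides of 0 in the lineages: its scaled log2 ratio was −0.53 for NSCL61 over NSC and 0.48 for OPCL61 over OPC, each beyond 2 standard errors over spots. With 1 array per line, the difference between the lineages was not tested. Both ratios were above 0 with median scaling (0.14 and 0.41), with the percentile over all probes (0.51 and 0.94) and without scaling (1.42 and 2.16).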

How the results depend on the processing

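With 1 array per line, no replicate could be left out. By replicate number, no paired analysis was possible because the lines share only replicate number 1, with 1 array each; lineage, which joins each glioma-initiating line to its precursor line, is a term of the limma fit, and without it 1 miRNA passed too. Of 116 alternative values of the members' log2 ratios, 15 had the opposite sign, 8 of them without scaling and 7 under other settings. Among these, 3 were ratios that had been called, all without scaling: miR-148b-3p 0.69 for NSCL61 over NSC, miR-130b-3p 0.29 for OPCL61 over OPC and miR-301a-3p −0.041 for OPCL61 over NSCL61. The others had not been called.

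For NSCL61 over NSC, 1 member was called (lower) with median scaling, with the percentile taken over all probes, with quantile normalization, and where all spots had to be well above background. There were 4 calls without scaling (3 higher, 1 lower) and 4 with the scanner software's total signal per miRNA (1 higher, 3 lower). For OPCL61 over OPC there were 0 calls with the percentile over all probes, 2 with quantile normalization, 3 with the software's total signal (1 higher, 2 lower) and 2 at 1.5-fold. The single call without scaling there was miR-130a-3p, not miR-130b-3p. For OPC over NSC there were 0 calls with the percentile over all probes, without scaling and with normexp, and 2 with the software's total signal (1 higher, 1 lower). For OPCL61 over NSCL61 there was 1 with the percentile over all probes (lower), 1 without scaling (lower) and 1 with quantile normalization (higher). There were 2 (both higher) with median scaling, with normexp and where all spots had to be well above background, and 3 (2 higher, 1 lower) with the software's total signal. The family difference for NSCL61 over NSC was −0.094 with quantile normalization, 0.78 with the mean over probes and 1.15 with the software's total signal.

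In limma, 1 miRNA passed, with 50 at an unadjusted p under 0.05. The count was 30 with median scaling, 29 with the percentile over all probes, 23 without scaling, 5 with quantile normalization, 50 with normexp, 32 with outlier spots kept, 35 with the mean over probes, 14 where all spots had to be well above background, and 0 with the software's total signal or without a trend. The planned fit over all 1023 miRNAs could not be made with a trend. Without one, an alternative added after seeing the data, it called 911, where most miRNAs stood at the lowest level of each array, which scaling set at 6.40 units for NSCL61, 24.3 for NSC, 14.0 for OPCL61 and 40.1 for OPC. For the other count differences the cause was not tested. Leaving that fit out, the adjusted p ranged from 0.0517 to 0.808 for miR-130b-3p, 0.200 to 0.988 for miR-301a-3p, 0.124 to 0.993 for miR-130a-3p and 0.00986 to 0.695 for miR-148b-3p, which passed in 4 of 11 settings. After the main scaling its levels in NSC, OPCL61 and OPC lay close to the lowest level of each array. These passes therefore cannot be read as a change of miR-148b-3p. The limma difference of miR-130a-3p turned to 0.27 with median scaling, 0.73 with the percentile over all probes, 1.79 without scaling, 0.068 with quantile normalization, 0.19 with the software's total signal and 0.11 where all spots had to be well above background. Without scaling it turned to 0.42 for miR-148b-3p and 1.02 for miR-301a-3p. Signals near background, as for miR-148b-3p, miR-152-3p and miR-301b-3p, limit what could be compared.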
